A study of Mus musculus with 7 samples.

Results

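The stroma, matrix and endothelium genes are 38 genes of the marrow environment, chosen by name from 53458 annotated genes and followed here in RNA of sorted long-term haematopoietic stem cells (LT-HSCs). Of these, 30 are grouped here as genes of stroma, extracellular matrix and bone, and 8 encode surface proteins used as markers of endothelium. The marrow donors were aged mice of strain C57/BL6, 3 heterozygous for Srp72 (Srp72+/-) and 4 wild type (WT, Srp72+/+), with 1 library each. Srp72 encodes a subunit of the signal recognition particle, which brings ribosomes that make secreted and membrane proteins to the endoplasmic reticulum. The sort kept cells positive for CD150, cKit and Sca1 and without CD48, Flt3, Ter119, B220, CD3, Mac1 or Gr1. No treatment is named in the labels, and neither an age beyond aged, nor the sex, nor the altered part of Srp72. The numbers of libraries equal the numbers of mice stated, but the labels do not tie a library to a mouse, so p-values measure the spread between these libraries.

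Fibrillar collagens form the tensile fibres of bone and connective tissue, and are secreted mainly by osteoblasts and fibroblast-like stromal cells. Basement membranes are sheets of type IV collagen and laminin laid down under endothelium and around other cells, and in marrow they line the sinusoids. Several endothelial surface proteins are also made by mouse HSCs, which share a developmental origin with endothelium: endoglin (Eng), endomucin (Emcn), PECAM-1 and ROBO4 are among those described on both.

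The 7 libraries held between 18054322 and 35247472 estimated reads. Levels are given in CPM, counts per unit of library size after TMM scaling, and the floor of 3 reads corresponds to 0.0910 to 0.192 CPM. WT 2 stood apart: of 26 HSC identity genes it was lowest of the 7 libraries in 25, and their summed level was 2000, 3316 and 3388 CPM in Srp72+/- 1 to 3 and 3933, 315, 3509 and 4132 CPM in WT 1 to 4. Procr, an HSC surface marker that was not part of the sort, had 9.0, 25.8 and 9.34 CPM in Srp72+/-. In WT it had 19.4, 0.0640, 43.9 and 40.1 CPM, where the value of WT 2 was a single read. Slamf1, which encodes the sort marker CD150, had 31.3, 70.9 and 49.85 CPM in Srp72+/- and 73.0, 4.7, 61.2 and 62.3 CPM in WT. Kit, which encodes the sort marker cKit, had 417, 578 and 598 CPM in Srp72+/- and 776, 99.4, 526 and 548 CPM in WT. The 10 neutrophil genes summed to 12320, 5249 and 1168 CPM in Srp72+/- and 123, 39370, 8720 and 2823 CPM in WT, and the 11 erythroid genes to 6904, 1620 and 501 CPM in Srp72+/- and 620, 9123, 415 and 627 CPM in WT. The 10 B-cell genes summed to 4425, 1335 and 243 CPM in Srp72+/- and 60.6, 10630, 754 and 818 CPM in WT. WT 2 and, less so, Srp72+/- 1 were thus low in HSC and high in neutrophil, erythroid and B-cell transcripts. The 10 megakaryocyte genes were not high in WT 2: they summed to 360, 528 and 1300 CPM in Srp72+/- and 655, 41.6, 361 and 620 CPM in WT. Srp72 itself had 71.9, 45.7 and 109.8 CPM in Srp72+/- and 99.6, 136.6, 103.0 and 88.4 CPM in WT, and the groups overlapped (edgeR quasi-likelihood test, log2 fold change -0.50, SE 0.32, unadjusted p = 0.159).

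In WT 2, the library lowest in HSC transcripts, some members were low, others were high, and 12 of the 28 tested members lay between 0.25 and 4 times the median of the other libraries. Summed over the 8 endothelial members, the level was 173, 219 and 259 CPM in Srp72+/- 1 to 3 and 304, 63.1, 215 and 276 CPM in WT 1 to 4, lowest in WT 2 and next lowest in Srp72+/- 1. Summed over the 30 stroma, matrix and bone members, it was 625, 279 and 229 CPM in Srp72+/- and 157, 1053, 449 and 304 CPM in WT, highest in WT 2 and next highest in Srp72+/- 1. That order was set by Fn1 and Vim, which made 92.1% of the sum in WT 2 and 85.6% in Srp72+/- 1 but 34.4% in WT 1. The other 28 members summed to 89.96, 86.6 and 84.6 CPM in Srp72+/- and 103, 83.6, 158 and 185 CPM in WT, so that without Fn1 and Vim the sum was highest in WT 4 and, by a narrow margin, lowest in WT 2. In bulk RNA, fewer cells of a type and less RNA per cell cannot be told apart. The part of the mature cells in these values was not tested.

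**Figure D1:**
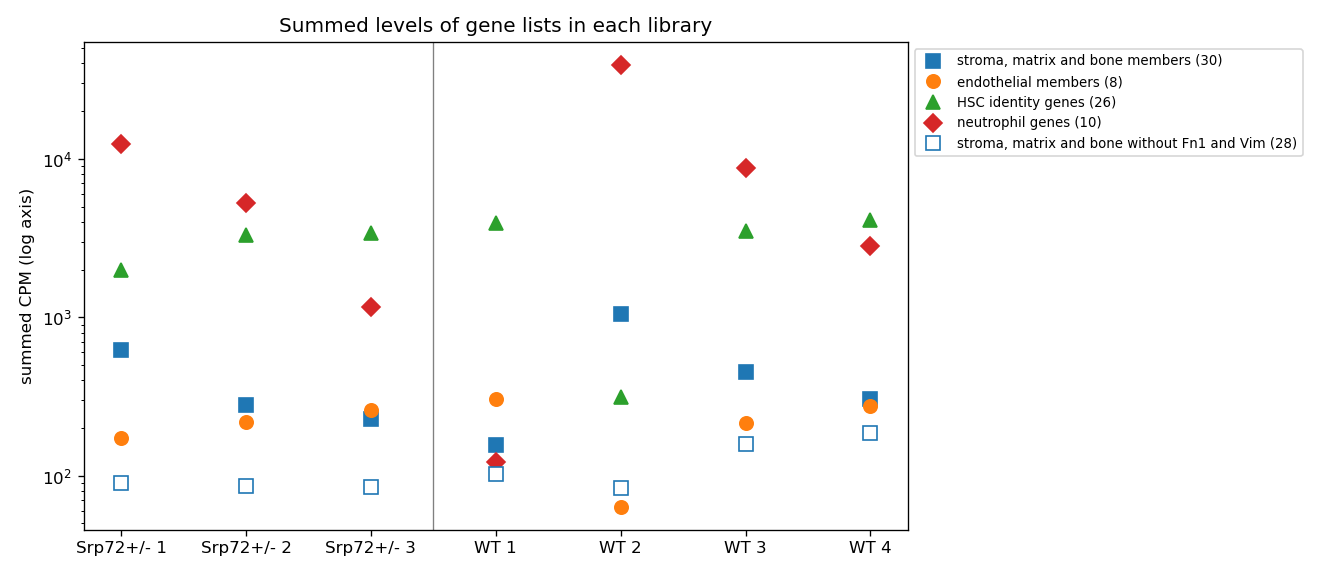
Summed CPM (log axis) of 4 gene lists, and of 1 of them without Fn1 and Vim (open squares), in the 3 Srp72+/- libraries, left of the grey line, and the 4 WT libraries, right of it; each symbol is 1 list in 1 library. In WT 2 the HSC identity genes and the endothelial members were at their lowest (315 and 63.1 CPM) and the neutrophil genes at their highest (39370 CPM); the sum of the stroma, matrix and bone members was highest there with Fn1 and Vim (1053 CPM) and lowest without them (83.6 CPM).

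Between the genotypes, none of the members passed the test. Of the 38 members, 28 had enough reads to be tested, 20 of 30 in stroma, matrix and bone and 8 of 8 in endothelium. At a false discovery rate of 0.05 edgeR called 0 of these 28 and 0 of all 20314 genes tested (0% of genes). DESeq2 called 0 members and 9 genes (0.0443%). An unadjusted p under 0.05 was reached by 2 members, Col1a1 and Col1a2, both with lower values in Srp72+/-, against 365 genes in all (1.8%), of which 160 were lower (0.788%). In 1 member, Col1a2, the groups did not overlap, against 724 genes (3.56%), 301 of them with lower values in Srp72+/- (1.48%) and 423 with higher values (2.08%). Without WT 2 the groups were apart in 5 of 26 members, Loxl2 with higher and Col1a2, Lamc1, Kdr and Robo4 with lower values in Srp72+/-, against 10.1% of all genes. Without WT 2 and Srp72+/- 1 they were apart in 6 of 27 members (18.1% of all genes), and without Srp72+/- 3 in 4 of 30 (11.2%). Fitted values were lower in Srp72+/- for 17 members and higher for 11, against 50.7% and 49.3% of all genes. The median log2 fold change was -0.12 over the 20 stroma, matrix and bone members and -0.05 over the 8 endothelial members, against -0.0067 over all genes tested. Without WT 2, when 19 stroma, matrix and bone members and 7 endothelial members could be tested (Col6a2 and Mcam no longer passed the filter), the medians were 0.41 and -0.23.

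**Figure D2:**
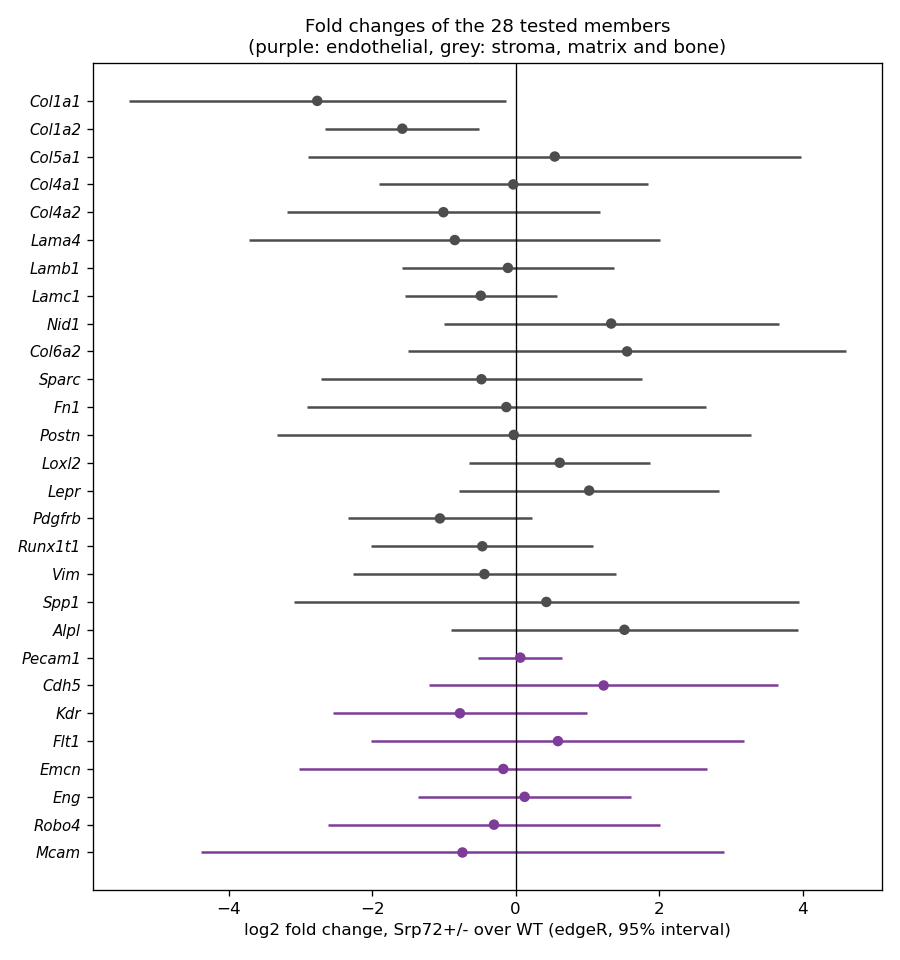
Log2 fold change of Srp72+/- over WT for the 28 tested members (points) with 95% confidence intervals from edgeR (lines), 3 Srp72+/- against 4 WT libraries. The intervals of Col1a1 (-5.39 to -0.14) and Col1a2 (-2.65 to -0.51) lie below 0, and those of the other members include 0.

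In the TMM-scaled edgeR fit of all 7 libraries, the 2 chains of type I collagen had the largest differences of the 28 tested members. Col1a2 lay only narrowly ahead of Col6a2 and Alpl, which were higher in Srp72+/-. Their log2 fold changes were 1.55 (SE 1.33) for Col6a2 and 1.52 (SE 1.05) for Alpl. The order changed between fits: without WT 2, Col5a1 was at 2.95 and Alpl at 2.69, against -2.77 for Col1a1 and -1.82 for Col1a2. Type I collagen is a trimer of 2 chains of COL1A1 and 1 chain of COL1A2, and is the main protein of bone matrix. Col1a2 (ENSMUSG00000029661, chr6:4504814-4541544, plus strand) had 9.29, 6.06 and 5.89 CPM in Srp72+/- 1 to 3 and 18.1, 9.48, 23.0 and 33.9 CPM in WT 1 to 4. The 3 Srp72+/- libraries lay below the 4 WT libraries, but Srp72+/- 1 and WT 2 were separated by a narrow gap, and the groups touched when the libraries were scaled by the upper quartile. The means were 7.08 ± 1.91 CPM in Srp72+/- (SD, n = 3) and 21.1 ± 10.2 CPM in WT (SD, n = 4). In the edgeR quasi-likelihood test its log2 fold change of -1.58 (SE 0.47) did not pass, with an unadjusted p = 0.00911 and an adjusted p = 0.9998. With DESeq2 the adjusted p was 0.513. The exact permutation test, two-sided, gave p = 0.0571, where the smallest p that 3 against 4 libraries can give is 0.0286. Over the fits that leave out 1 library, the log2 fold change of Col1a2 ran from -1.83 without Srp72+/- 1 to -1.27 without WT 4. Its smallest adjusted p in these edgeR fits was 0.791, without WT 2.

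Col1a1 (ENSMUSG00000001506, chr11:94936224-94953042, plus strand) had 2.60, 1.12 and 0.698 CPM in Srp72+/- and 1.11, 9.78, 1.93 and 27.0 CPM in WT. WT 4 and WT 2 were high, while WT 1 and WT 3 lay within the range of Srp72+/-. Its log2 fold change was -2.77 (SE 1.15, edgeR unadjusted p = 0.0414, exact permutation p = 0.257), and it was -1.58 without WT 4 (edgeR, unadjusted p = 0.146). The ratio of Col1a1 to Col1a2 reads was 0.279, 0.184 and 0.118 in Srp72+/- and 0.0613, 1.03, 0.0837 and 0.796 in WT. The 2 chains were therefore not measured in 1 ratio: Col1a1 reads came close to Col1a2 reads in WT 2 and WT 4 and stayed far below them in the other libraries.

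Col5a1, which encodes a chain of the type V collagen that starts fibres, was highest in Srp72+/- 1 and WT 2, like the summed neutrophil and erythroid genes. It had 12.99, 1.88 and 0.273 CPM in Srp72+/- and 0.561, 11.9, 1.2 and 0.180 CPM in WT. Srp72+/- 1 and WT 2 were the only libraries above 2 CPM, 1 of each genotype, and the difference was 0.54 on the log2 scale (SE 1.5, edgeR unadjusted p = 0.726). Without Srp72+/- 1 it was -1.73, and without WT 2 it was 2.95. Col3a1 and Col5a2 were not tested; Col3a1 reached 2.17 CPM in WT 2 and at most 0.268 CPM elsewhere, and Col5a2 at most 0.584 CPM.

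**Figure D3:**
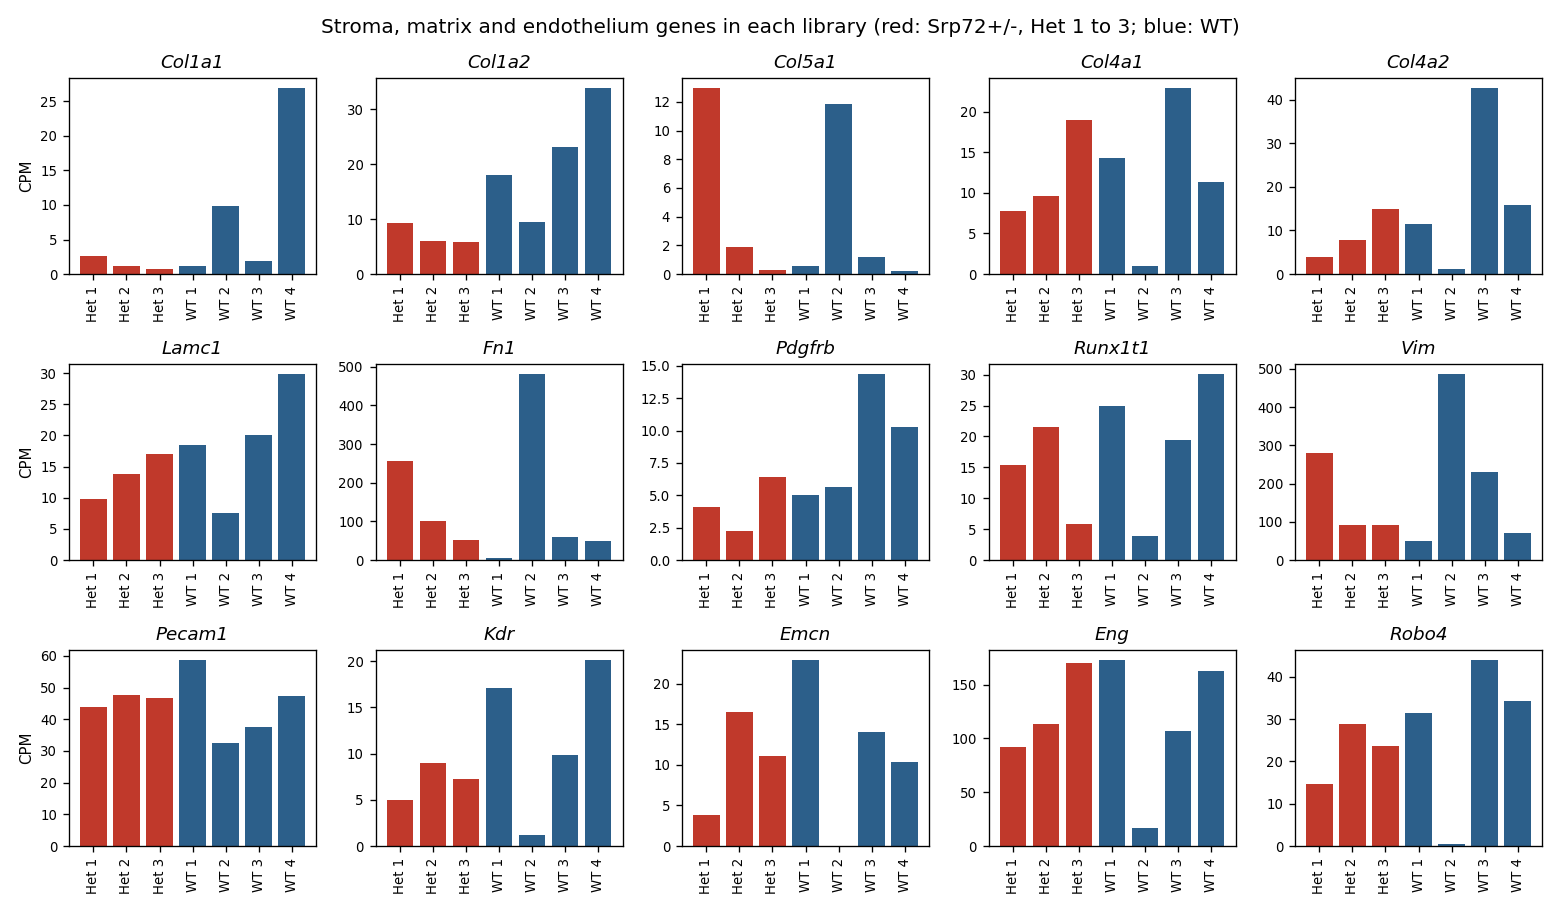
CPM of 15 members in each library, with linear axes that start at 0; red bars are the 3 Srp72+/- libraries (Het 1 to Het 3) and blue bars the 4 WT libraries. In Col1a2 the red bars lie below the blue ones; Emcn, Robo4, Eng, Kdr, Col4a1 and Col4a2 drop in WT 2, and Fn1, Vim and Col5a1 are high in Het 1 and WT 2.

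Of the 6 basement membrane genes, 4 ran the other way from Col5a1 and were lowest in WT 2: Col4a1, Col4a2, Lama4 and Lamc1. Col4a1 and Col4a2 encode the 2 chains of the common type IV collagen network and lie head to head, at chr8:11198423-11312826 on the minus strand and chr8:11312805-11449287 on the plus strand, with annotated starts that share 22 bases. Col4a1 had 7.78, 9.64 and 18.9 CPM in Srp72+/- and 14.3, 0.959, 23.0 and 11.4 CPM in WT. Col4a2 had 4.03, 7.76 and 14.9 CPM in Srp72+/- and 11.6, 1.21, 42.8 and 16.0 CPM in WT. For both genes WT 2 was lowest and Srp72+/- 1 next, and the groups overlapped widely. For Col4a1 the edgeR log2 fold change was -0.03 (SE 0.82, unadjusted p = 0.968). For Col4a2 the edgeR log2 fold change was -1.01 (SE 0.95, unadjusted p = 0.32, exact permutation p = 0.8). The ratio of Col4a2 to Col4a1 reads was 0.517, 0.806 and 0.786 in Srp72+/- and 0.809, 1.27, 1.86 and 1.40 in WT, so every WT library stood above every Srp72+/- library, although 0.806 and 0.809 nearly met. In WT 2 it rested on 19 reads of Col4a2 and 15 reads of Col4a1. The ratio of Col4a2 to Col4a1 was examined after its values were seen and has no test.

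Lamc1 encodes the laminin gamma1 chain, part of most laminins. It had 9.80, 13.9 and 17.0 CPM in Srp72+/- and 18.5, 7.61, 20 and 29.9 CPM in WT. Apart from WT 2, the lowest of all, the WT libraries lay above the Srp72+/- libraries (log2 fold change -0.49, SE 0.46, edgeR unadjusted p = 0.321). Lama4, the laminin alpha chain typical of vessel walls, had 0.583, 5.49 and 1.49 CPM in Srp72+/- and 4.93, 0.0640, 2.25 and 10.9 CPM in WT, where the value of WT 2 was 1 read. Lamb1 differed from its laminin partners: it was highest in WT 2, at 3.01 CPM, and between 0.859 and 2.18 CPM in the other libraries. Nid1, which encodes a linker of laminin and type IV collagen, was highest in Srp72+/- 1, at 3.39 CPM, and at most 0.899 CPM elsewhere. The fits of Lama4, Lamb1 and Nid1 gave log2 fold changes of -0.85, -0.11 and 1.33, each with an interval that includes 0.

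Fn1 had the highest mean TPM, a level per length of transcript, of the matrix genes. It encodes fibronectin, a matrix glycoprotein that binds integrins and is made by macrophages and other blood cells as well as stroma. Fn1 (ENSMUSG00000026193, chr1:71585520-71653200, minus strand) had 255, 100 and 52.8 CPM in Srp72+/- and 5.10, 482, 59.7 and 49.1 CPM in WT. WT held both the highest and the lowest library, and the 3 Srp72+/- libraries lay between them. Fn1 had a log2 fold change of -0.13 (SE 1.21, edgeR unadjusted p = 0.917), and of 1.85 without WT 2. The 11 macrophage genes summed to 94.8, 45.1 and 43.3 CPM in Srp72+/- and 12.2, 215, 46.3 and 52.5 CPM in WT; they too were lowest in WT 1 and highest in WT 2. The part of macrophage or other mature cell RNA in Fn1 was not tested.

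The other matrix members were low. Sparc, which encodes a collagen-binding protein of bone and other matrix, had 5.18, 3.15 and 0.923 CPM in Srp72+/- and 0.568, 11.5, 2.40 and 2.81 CPM in WT, again highest in WT 2 and Srp72+/- 1. Loxl2, which encodes a collagen cross-linking oxidase, had between 0.665 and 2.07 CPM, with a log2 fold change of 0.61 (SE 0.55, edgeR unadjusted p = 0.295). Col6a2, a chain of the beaded type VI collagen, had between 0 and 2.15 CPM, and Postn, which encodes the matricellular protein periostin, between 0 and 2.61 CPM. Col6a1, Dcn and Lum were not tested and reached at most 0.719, 0.534 and 0.232 CPM. Decorin and lumican, the proteoglycans that the last pair encode, mark fibroblasts, and their genes were low in every library.

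Of the mesenchymal cell genes, Vim was the most abundant member per length. It encodes vimentin, an intermediate filament also found in blood cells, and its mean was 87.2 TPM (a level per length of transcript), against 46.6 TPM for Eng, 16.0 TPM for Fn1 and under 1 TPM for 26 of the 38 members. Vim (ENSMUSG00000026728, chr2:13573927-13582826, plus strand) had 280, 92.5 and 92.0 CPM in Srp72+/- and 49.0, 488, 231 and 70.0 CPM in WT. WT 2 and Srp72+/- 1 were highest, and the groups overlapped (log2 fold change -0.44, SE 0.80, edgeR unadjusted p = 0.6; 0.41 without WT 2).

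Pdgfrb encodes the PDGF receptor of pericytes and mesenchymal cells. It had 4.08, 2.23 and 6.43 CPM in Srp72+/- and 5.04, 5.63, 14.4 and 10.3 CPM in WT. Its means were 4.25 ± 2.10 CPM in Srp72+/- (SD, n = 3) and 8.84 ± 4.38 CPM in WT (SD, n = 4), and WT 1 and WT 2 lay below Srp72+/- 3. The difference on the log2 scale was -1.06 (SE 0.56, edgeR unadjusted p = 0.0933, exact permutation p = 0.171). Runx1t1 was listed with these genes but encodes a transcriptional corepressor, not a surface or matrix protein. It had 15.4, 21.5 and 5.76 CPM in Srp72+/- and 24.9, 3.97, 19.4 and 30.1 CPM in WT. WT 2 and then Srp72+/- 3 were lowest (log2 fold change -0.47, SE 0.68, edgeR unadjusted p = 0.51). Which cells its reads came from was not tested.

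The defining markers of marrow mesenchymal cells were sparse. Lepr, which encodes the leptin receptor of perisinusoidal stromal cells, had 5.32, 3.27 and 0.503 CPM in Srp72+/- and 0.574, 1.70, 1.89 and 1.76 CPM in WT. Srp72+/- held both the highest libraries and the lowest (log2 fold change 1.02, SE 0.79, edgeR unadjusted p = 0.229). Pdgfra, another receptor of stromal cells, reached 2.11 CPM in WT 2 and at most 0.581 CPM elsewhere, and Grem1, which encodes a BMP antagonist, reached at most 0.324 CPM; neither was tested.

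Bone genes were low. Bglap, which encodes osteocalcin, was at 0 in the 3 Srp72+/- libraries and at 0.112, 0, 0 and 1.42 CPM in WT, and its near copy Bglap2 was at 0 in Srp72+/- and at most 0.457 CPM in WT. A read of one may be assigned to the other, so their division is uncertain. Ibsp, which encodes bone sialoprotein, reached 1.25 CPM in Srp72+/- 2 and 2.81 CPM in WT 2. Spp1, which encodes osteopontin and is also made by macrophages, was between 0 and 3.86 CPM in Srp72+/- and between 0 and 2.69 CPM in WT (log2 fold change 0.43, SE 1.54). Alpl, which encodes alkaline phosphatase, was between 0.491 and 3.09 CPM in Srp72+/- and between 0.0899 and 1.53 CPM in WT (log2 fold change 1.52, SE 1.05). Of the 5 bone genes, 2 were tested and 0 passed.

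Of the 8 endothelial members, WT 2 was lowest in Eng, Robo4, Emcn, Kdr and Pecam1 and highest in Mcam. Eng encodes endoglin, a TGF-beta co-receptor. It (ENSMUSG00000026814, chr2:32646595-32682669, plus strand) had 91.9, 114 and 170 CPM in Srp72+/- and 173, 16.6, 107 and 162 CPM in WT. Apart from WT 2 the groups covered the same range (log2 fold change 0.12, SE 0.65, edgeR unadjusted p = 0.852). Robo4 (ENSMUSG00000032125, chr9:37401897-37415115, plus strand), which encodes a roundabout receptor, had 14.6, 28.8 and 23.6 CPM in Srp72+/- and 31.4, 0.384, 44.0 and 34.2 CPM in WT. The value of WT 2 was 6 reads, and the other WT libraries lay above the Srp72+/- libraries. The log2 fold change was -0.30 (SE 1.01, edgeR unadjusted p = 0.773) and -0.71 without WT 2.

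Emcn (ENSMUSG00000054690, chr3:137341067-137432185, plus strand), which encodes the sialomucin endomucin, had 3.87, 16.5 and 11.1 CPM in Srp72+/- and 23.0, 0, 14.0 and 10.4 CPM in WT. With 0 reads, WT 2 allows a level of up to 0.192 CPM, at least 65.4-fold lower than the median of the other 6 libraries, 12.6 CPM. The groups overlapped (log2 fold change -0.17, SE 1.24, edgeR unadjusted p = 0.893). Kdr (ENSMUSG00000062960, chr5:75932827-75978458, minus strand), which encodes VEGF receptor 2, had 4.92, 8.97 and 7.22 CPM in Srp72+/- and 17.0, 1.21, 9.83 and 20.1 CPM in WT. Again WT 2 alone of the WT libraries lay below the Srp72+/- libraries. The log2 fold change was -0.78 (SE 0.77, edgeR unadjusted p = 0.343), and -1.15 without WT 2 (unadjusted p = 0.0195, adjusted p = 0.977). In that fit 962 of 19856 genes had an unadjusted p under 0.05 and 0 were called. Besides Kdr, these included Col1a1, Col1a2, Col4a2 and Robo4 with lower values in Srp72+/-, and Col5a1 and Alpl with higher values.

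Pecam1 (ENSMUSG00000020717, chr11:106654217-106750628, minus strand), which encodes the adhesion protein PECAM-1 of endothelium, platelets and leukocytes, varied least among the members described by library. It had 43.9, 47.6 and 46.6 CPM in Srp72+/- and 58.8, 32.6, 37.5 and 47.3 CPM in WT, and its log2 fold change of 0.06 had the 95% confidence interval -0.52 to 0.65. WT 2 was lowest here too, by a much smaller margin. Flt1, which encodes VEGF receptor 1 and is also found on monocytes and macrophages, ran opposite to Kdr: it had 11.8, 1.44 and 0.395 CPM in Srp72+/- and 0.785, 7.44, 2.05 and 1.75 CPM in WT, and Srp72+/- 1 and WT 2 were highest. The ratio of Flt1 to Kdr reads was 2.39, 0.161 and 0.0548 in Srp72+/- and 0.0461, 6.12, 0.208 and 0.0871 in WT. Flt1 thus exceeded Kdr in reads only in Srp72+/- 1 and WT 2. Mcam, which encodes the adhesion protein CD146, had 4.67 CPM in WT 2 and at most 1.16 CPM in the other libraries. Cdh5, which encodes VE-cadherin, the defining junction protein of endothelial cells, was between 0.0303 and 1.25 CPM in Srp72+/- and between 0.0899 and 0.528 CPM in WT. Per length its mean was 0.0532 TPM, against 46.6 TPM for Eng.

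Set against the other 6 libraries, WT 2 had a median ratio of 0.405 over the 8 endothelial members and 1.54 over the 20 tested stroma, matrix and bone members, against 0.0513 over the HSC identity genes, 9.77 over the neutrophil genes and 0.944 over all genes tested. It was lowest of the 7 libraries in 10 of the 28 tested members, 5 of them endothelial, against 26.6% of all genes, and highest in 5 of 28, against 22.9%. At most 0.25 of the median of the other libraries was measured in WT 2 for 8 of 28 members (13.5% of all genes): Col4a1, Col4a2, Lama4, Runx1t1, Kdr, Emcn, Eng and Robo4. At least 4 times that median was measured for another 8 of 28 (5.79% of all genes): Col1a1, Col5a1, Col6a2, Sparc, Fn1, Vim, Flt1 and Mcam. Of these, Col6a2 and Mcam did not pass the filter without WT 2, so their place in this count depends in part on WT 2 itself. Their medians in the other 6 libraries were near the floor, at 0.152 and 0.307 CPM, and Col6a2 was highest in Srp72+/- 3. WT 2 and Srp72+/- 1 were the 2 lowest libraries in 8 members (12.7% of all genes) and the 2 highest in 7 (12.3%). WT 4 was highest in 7, type I collagen among them (13.4%). As WT 2 stands apart from the other 6 libraries, no correlation with the HSC level is given over all 7.

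**Figure D4:**
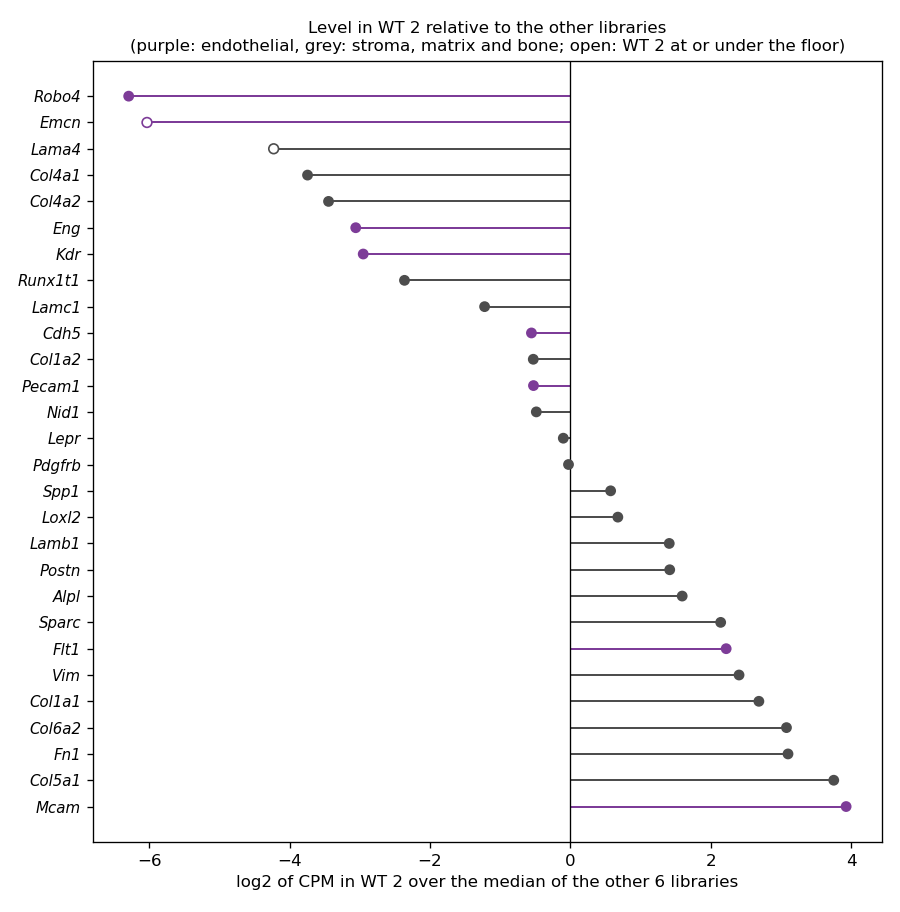
Log2 of the CPM in WT 2 over the median CPM of the other 6 libraries for the 28 tested members, ordered from low to high; open circles are members at or under the floor in WT 2, drawn at the floor. Robo4, Emcn and Lama4 lie lowest and Mcam, Col5a1 and Fn1 highest, and both ends hold endothelial as well as matrix genes. Mcam and Col6a2 did not pass the filter without WT 2.

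Promoter sequences of the 4 endothelial members that were low in WT 2 are shown because these genes have the lowest ratios of WT 2 to the other libraries among the endothelial members. Their highest library differed: it was WT 1 for Emcn and Eng, WT 3 for Robo4 and WT 4 for Kdr. The sequences are the bases before the annotated start of each gene, from RefSeq on GRCm38.p6, written along the gene's strand. Capitals mark AGGAAG or its reverse complement CTTCCT, a hexamer that holds a core sequence bound by ETS factors. Other forms of this motif are not marked. The windows are chr3:137340828-137341066 (plus strand) for Emcn, chr2:32646345-32646594 (plus) for Eng, chr9:37401722-37401896 (plus) for Robo4 and chr5:75978459-75978705 (minus) for Kdr.
Emcn: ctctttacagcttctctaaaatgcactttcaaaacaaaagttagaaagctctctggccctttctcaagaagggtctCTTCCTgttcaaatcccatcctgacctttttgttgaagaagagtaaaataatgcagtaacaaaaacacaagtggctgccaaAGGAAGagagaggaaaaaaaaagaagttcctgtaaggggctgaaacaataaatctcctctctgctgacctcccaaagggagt
Eng: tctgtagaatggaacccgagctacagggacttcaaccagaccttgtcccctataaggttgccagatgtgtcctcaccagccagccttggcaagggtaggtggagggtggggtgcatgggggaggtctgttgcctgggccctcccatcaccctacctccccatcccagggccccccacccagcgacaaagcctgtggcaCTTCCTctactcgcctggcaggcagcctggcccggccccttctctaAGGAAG
Robo4: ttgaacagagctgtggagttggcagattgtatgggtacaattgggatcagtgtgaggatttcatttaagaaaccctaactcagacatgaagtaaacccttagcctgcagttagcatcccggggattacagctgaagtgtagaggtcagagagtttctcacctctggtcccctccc
Kdr: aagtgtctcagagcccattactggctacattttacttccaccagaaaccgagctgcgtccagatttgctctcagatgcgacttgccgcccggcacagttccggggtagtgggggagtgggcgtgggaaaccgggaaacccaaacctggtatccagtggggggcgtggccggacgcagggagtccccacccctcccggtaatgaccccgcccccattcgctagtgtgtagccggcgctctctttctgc
In windows of 250 bases before the RefSeq start, searched on both strands, the motif was found in 13 of the 25 members with a promoter entry (52%), against 8734 of 27025 genes (32.3%). It was found in 3 of 6 members low in WT 2 with an entry (Emcn, Eng and Robo4) and in 4 of 6 members high in WT 2 (Col5a1, Col6a2, Vim and Flt1), so it was not limited to either side. Col6a2 did not pass the filter without WT 2. Emcn and Eng hold 2 matches each in the stretch shown. The match of Robo4 lies in bases annotated as transcribed by GENCODE, which are not printed. The GATA-type hexamer AGATAA or its reverse complement TTATCT was found in 0 of the 25 members, against 3090 of 27025 genes (11.4%). Other forms of either motif were not searched, so their absence is not shown. The motifs were chosen after the sequences were seen, matches of the 2 can share bases, and a match is a description of letters only.

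In each of the 13 companion lists, 0 genes passed the test. Of 27 collagen biosynthesis genes 24 were tested, 8 higher and 16 lower in fitted value, where 50.7% of all genes tested were lower. Colgalt1, a collagen galactosyltransferase, had 54.4, 50.4 and 59.7 CPM in Srp72+/- and 62.0, 64.0, 68.6 and 63.8 CPM in WT. The groups did not overlap, as in 3.56% of all genes tested, but the difference was small (log2 fold change -0.24, SE 0.19, edgeR unadjusted p = 0.244). P4hb, a subunit of the collagen prolyl hydroxylase, had 169, 111 and 152 CPM in Srp72+/- and 129, 402, 121 and 155 CPM in WT, high only in WT 2. Loxl4, a collagen cross-linking oxidase, had 0.477, 1.29 and 1.52 CPM in Srp72+/- and 0.672, 0.256, 0.192 and 0.0899 CPM in WT (log2 fold change 1.86, SE 0.80, edgeR unadjusted p = 0.0477). Of 21 matrix proteases and inhibitors 15 were tested, 2 higher and 13 lower, against the same share of all genes. WT 2 was highest in 7 of these 15 and lowest in 3, and the sum of the list was highest there, at 1504 CPM. Mmp8, the neutrophil collagenase, had 267, 149 and 18.2 CPM in Srp72+/- and 1.57, 710, 113 and 67.3 CPM in WT, lowest in WT 1 and highest in WT 2 like the summed neutrophil genes.

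Of 31 matrix receptor genes 27 were tested, with 14 higher, 13 lower and 0 called. Itga4, the integrin chain that binds fibronectin and VCAM-1, had 344, 227 and 215 CPM in Srp72+/- and 297, 373, 294 and 259 CPM in WT. Itga6, a chain of laminin-binding integrins, had 167, 203 and 264 CPM in Srp72+/- and 311, 51.1, 187 and 337 CPM in WT, with WT 2 lowest. Itga9, another integrin chain, had 1.84, 1.36 and 1.40 CPM in Srp72+/- and 3.79, 2.15, 2.30 and 5.68 CPM in WT. The groups did not overlap, as in 3.56% of all genes tested (log2 fold change -1.18, SE 0.54, edgeR unadjusted p = 0.0596).

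Many of the other endothelial genes, chosen as companions, were low in WT 2 as well, but not all of them. Of 26, 19 were tested, with 8 higher, 11 lower and 0 called. WT 2 was lowest in 11 of 19, against 26.6% of all genes, and highest in 0, against 22.9%. The median ratio of WT 2 to the other libraries was 0.232 over this list. Vwf, which encodes the von Willebrand factor of endothelium, platelets and some HSCs, had 247, 341 and 460 CPM in Srp72+/- and 385, 14.1, 222 and 424 CPM in WT. Tek, which encodes the angiopoietin receptor TIE2, had 24.1, 31.4 and 29.1 CPM in Srp72+/- and 35.7, 1.09, 42.5 and 45.2 CPM in WT. Esam, which encodes an adhesion protein, had 26.5, 23.2 and 32.4 CPM in Srp72+/- and 31.8, 0.192, 38.1 and 50.2 CPM in WT. Tek and Esam were chosen after their values were seen. Tal1, named for its high mean, fell less in WT 2. It had 126, 171 and 226 CPM in Srp72+/- and 163, 85.9, 142 and 163 CPM in WT. Angpt1, the ligand of TIE2, belongs to the list of further stroma genes, not to this one. It had 175, 267 and 286 CPM in Srp72+/- and 419, 8.67, 199 and 249 CPM in WT.

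Genes of marrow stroma, bone-forming cells and mural cells gave 0 calls. Of 18 further stroma genes 13 were tested, of 12 bone genes 8, and of 9 pericyte and smooth muscle genes 4. Kitl, the KIT ligand made by niche cells, had 0.583, 0.312 and 0.0606 CPM in Srp72+/- and 0.280, 0.128, 0.911 and 3.06 CPM in WT. Runx2, the osteoblast transcription factor, had 68.3, 79.8 and 92.1 CPM in Srp72+/- and 72.7, 65.5, 75.7 and 80.6 CPM in WT, with the groups overlapping. Smpd3, another of the bone genes, had 1.585, 1.51 and 1.99 CPM in Srp72+/- and 1.16, 0.726, 1.36 and 1.19 CPM in WT. Its groups did not overlap, with higher values in Srp72+/- (log2 fold change 0.61, SE 0.50, edgeR unadjusted p = 0.25). Acta2, which encodes smooth muscle actin, had 1.48, 2.90 and 0.698 CPM in Srp72+/- and 0.505, 5.51, 0.528 and 1.08 CPM in WT. Only 1 of the bone genes, Sost, was at 0 in every library.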

How the data were processed

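RNA was measured in 7 libraries, which titles and genotype labels place in the 2 groups. Per the labels' protocols, cells were sorted into lysis buffer, and libraries were made with the Ovation RNA-seq system V2 and a TruSeq V2 kit. The deposited tables hold estimated counts (expected counts) and TPM per transcript, made by the authors with Salmon 0.12.0, per the submitters' processing notes, where GRCm38.p6 and mm10 are named too. Not given in the sources used here are the strand setting and the transcript release; values of overlapping genes and near copies are therefore uncertain. Mitochondrial ribosomal RNA took between 26.3% and 31.4% of the reads.

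Of 136288 transcripts, 136176 matched GENCODE M21 on GRCm38; the 112 others, 0.0413% to 0.0622% of the reads, were left out. Estimated counts were summed per gene and rounded; TPM served for levels per length. The filter was filterByExpr (minimum count 10, minimum total 15), and genotypes were compared with edgeR 4.0.16 (TMM, quasi-likelihood test, robust, no covariate, Benjamini-Hochberg, threshold 0.05) in R 4.3.3; the biological coefficient of variation was 0.628. DESeq2 1.42.0 and voom with quality weights (limma 3.58.1) were alternatives. Exact permutation tests, two-sided, used log2(CPM + 0.1). CPM refer to TMM-scaled library sizes. The reads carry no molecular identifiers, so floors (3 counts) cover counting error only. The procedure was tested on simulated data. Coordinates are from GENCODE M21.

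The members and lists were chosen with earlier results of these data known. Values by library are given for members with a mean of at least 5 CPM, for tested members whose groups do not overlap, and for members whose highest library is at least 10 times the median and at least 5 CPM (15 members), and for other members where they help. From each of 13 companion lists the 3 smallest p and the 2 highest means could be named.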

Additional observations from a re-analysis of the deposited data

Results flagged for a closer look

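Among the 15 members described by library, 2 had a WT library far from the other WT libraries by Dixon's ratio at the 95% level. The ratio was taken on log2(CPM + 0.1), not on CPM. Emcn was at 0 CPM in WT 2, with a ratio of 0.855 that depends on the 0.1 added. Robo4 was at 0.384 CPM in WT 2, with a ratio of 0.925. Chance marks about 1 in 20 such groups if they are independent. Both flags fell on WT 2, so they are not independent, and that rate is no benchmark for them. The ratio was taken for these 15 members only, so no share of all genes is given. WT 2 was lowest of the 7 libraries in 26.6% of all genes tested. It was also lowest in 25 of 26 HSC identity genes. The part of its cell make-up in the values of Emcn and Robo4 was not tested.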

How the results depend on the processing

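Across 16 alternatives, 0 members were called. DESeq2 called 9 genes over the series, and leaving out 1 library called 0 to 1 (1 without WT 4, not a member). The count of members whose groups do not overlap was 0 with upper-quartile scaling, 6 of 27 without WT 2 and Srp72+/- 1 (18.1% of all genes) and 1 to 5 when 1 library was left out: 5 of 26 without WT 2 (Loxl2 higher; Col1a2, Lamc1, Kdr and Robo4 lower; 10.1% of all genes), 4 of 30 without Srp72+/- 3 (11.2%) and 2 without Srp72+/- 1. It was not computed for the length offset, nor for the replicate block and voom, which have no scaling of their own. Leaving out both libraries together was chosen with earlier results known. Without the filter the median of all genes moved to 0.13.

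Of 28 log2 fold changes, 10 kept their direction under each alternative that gave them a value: Alpl, Cdh5, Col1a1, Col1a2, Col4a2, Col6a2, Lepr, Loxl2, Pdgfrb and Runx1t1. Below the filter, Cdh5 had no value with the stricter filter or without WT 3, Col6a2 none without WT 2, Nid1 and Postn none with the stricter filter, and Mcam none with the stricter filter, without WT 2 or without WT 2 and Srp72+/- 1. With the replicate block Col1a2 was -1.19 (edgeR, unadjusted p = 0.0529). The other 18 turned at least once, and the cause was not tested. With a transcript length offset Lamb1 was 0.96, Lamc1 0.0552, Fn1 0.21, Spp1 -0.57, Pecam1 -0.0871 and Eng -0.27. With voom Lamb1 was 0.13, Sparc 0.80, Fn1 2.11, Vim 0.45, Pecam1 -0.0084, Eng -0.19 and Mcam 2.89, and the stroma, matrix and bone median was 0.29. Without WT 2 and Srp72+/- 1 Lamb1 was 0.68, Nid1 -0.17, Sparc 0.0812, Fn1 1.01, Postn 0.58, Pecam1 -0.0218, Flt1 -0.76 and Eng -0.0562. No pairing of the samples by number is stated in the labels. Same-numbered libraries had correlations of deviations from the group means of -0.316, -0.162 and 0.0018. With so few libraries such a check cannot exclude a pairing. With the replicate block, Col5a1 was -0.80, Col4a1 0.53, Fn1 0.44, Kdr 0.0586, Flt1 -0.86, Emcn 0.32 and Robo4 0.48. In that fit 0 genes were called, and 139 genes had an unadjusted edgeR p under 0.05, against 365 without the block.

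Leaving out 1 library at a time gave -1.73 to 2.95 for Col5a1, -0.52 to 0.43 for Col4a1, -0.55 to 0.42 for Lamb1, -0.18 to 1.87 for Nid1, -1.87 to 1.05 for Postn, -0.35 to 1.01 for Spp1, -1.75 to 1.55 for Flt1, -0.67 to 0.37 for Emcn, -0.999 to 1.85 for Fn1, -0.23 to 0.39 for Eng, -1.11 to 0.68 for Sparc, -1.21 to 0.41 for Vim, -0.0515 to 0.24 for Pecam1, -0.71 to 0.0118 for Robo4 and -2.12 to 0.0438 for Lama4. The stroma, matrix and bone median ran from -0.37 to 0.41 and the endothelial median from -0.26 to 0.25. Depth limits the 14 members with a mean under 1 CPM, where 1 library of 18054322 reads holds few reads of each.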

Other observations

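Part of the reads of several members was assigned to transcripts annotated as retained introns. The share over the 7 libraries was 42.0% for Vim, 76.3% for Lamb1, 51.7% for Postn and 40.8% for Lama4, against 0% for Col1a1, Pdgfrb and Runx1t1. Lamb1 and Postn rest on 229 and 172 reads in all. The split between such transcripts and spliced ones was made by the authors' tool, and it was examined after the values were seen.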
